A study of Sus scrofa with 6 samples.

Results

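The genes described here carry proteins into the endoplasmic reticulum (ER) and move them between the ER and the Golgi apparatus. They were chosen by name alone: every gene whose symbol begins with SEC and a digit, SRP and a digit, SRPR, SPCS, SSR1 to SSR4, TMED, the coatomer stems COPA, COPB, COPG, COPZ and COPE, ARF1 to ARF6, KDELR, TRAPPC or SAR1. In the deposited table this rule took 65 of 6765 genes, measured by 100 of the 10069 probe sets that have 1 gene symbol. The rule used no measured value, but the group was proposed with earlier results of these data known. It also took SEC14L1 and SEC14L2, which are named after a lipid transfer protein of yeast and are no part of a coat, and the SNARE-like SEC22C.

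The study compared IPEC-1 and IPEC-J2, 2 epithelial lines that arose without engineering from newborn piglets' small intestine. The culture description in the labels has 1 bank number for the 2 lines, while the methods list a separate number for each. The labels name no engineered allele and no treatment for either line, and both grew on porous membrane inserts in DMEM/Ham's F-12 with fetal calf serum, insulin-transferrin-selenium, HEPES and epidermal growth factor, for 7 days by the labels and 10 days by the methods. RNA from 3 cultures of each line (500 ng per array) was hybridised to 6 Affymetrix Porcine Genome Arrays. Each group is 1 established line, so the p-values measure the spread between cultures of that line and not between pigs. With 3 arrays per line the precision is limited.

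All values are log2 signals, and a difference is IPEC-J2 minus IPEC-1 on the log2 scale unless a fold is named. The lowest value on each array was exactly 4.00, so a signal of 4.00 has no order and is called the floor. Levels of different genes come from different probe sets and were not compared with each other. In bulk RNA, fewer cells of a type and less RNA per cell cannot be told apart. A gene was called where limma gave an adjusted p under 0.05 over all 6765 genes. Between 40.5 and 48.3% of the probe sets of an array lay at the floor. IPEC-J2 replicate 1 had the most of them, and it was the lowest IPEC-J2 array for 34 of the 61 measured members. The labels carry the same culture note for IPEC-1 replicate 1 and IPEC-J2 replicate 3 (note A) and for IPEC-1 replicate 2 and IPEC-J2 replicate 1 (note B), while the other 2 arrays have a note each. Culture note is a name given here to these descriptions, and whether a shared note marks a shared culture day is not stated. Of 13 epithelial markers in the table, 9 in IPEC-1 and 12 in IPEC-J2 were above the floor on all 3 arrays, with summed log2 signals of 119.7 to 127.7 in IPEC-1 and 135.9 to 139.2 in IPEC-J2. The higher sum came from a few genes, and 5 were called higher. VIL1, HNF4A and CLDN3 differed most (log2 differences of 6.90, 4.08 and 2.14, limma adjusted p = 0.0367, 0.00244 and 0.000214), with 1, 1 and all 3 of the IPEC-1 arrays at the floor. EZR (1.44) and CLDN7 (1.09) were also called higher (limma adjusted p = 0.0013 and 0.0297). VIL1 and CLDN7 lost their calls when at least 1 array was left out (limma adjusted p up to 0.12 and 0.101). KRT19 was called lower (-0.80), and the 13 markers split into 7 higher and 6 lower with a median of 0.16. Of 8 mesenchymal markers, COL3A1, DCN, LUM, ACTA2 and DES lay at the floor on all 6 arrays, and 3 were measured. VIM was bright in both lines, with means of 12.86 in IPEC-1 and 11.48 in IPEC-J2 (-1.38, limma adjusted p = 0.0989). PDGFRB differed by -0.84 and COL1A2 by -0.03, and none of the 3 was called. The sums over the 8 were 43.8 to 44.7 in IPEC-1 and 41.5 to 42.8 in IPEC-J2. Of 5 immune markers, 3 were measured, PTPRC and CD4 lay at the floor on all 6 arrays, and the sums were 21.6 to 22.1 in IPEC-1 and 20.0 to 20.9 in IPEC-J2, where CD3E read 4.00 on all 3 arrays against a mean of 5.93 in IPEC-1 (limma adjusted p = 0.00346). The part of these marker sums in the results below was not tested.

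A protein bound for secretion or for a membrane starts with a signal sequence, which the signal recognition particle (SRP) binds as it leaves the ribosome. The SRP receptor docks the complex at the Sec61 channel, the chain passes into the ER, and signal peptidase removes the signal sequence. Folded cargo then leaves the ER in vesicles coated with COPII, and escaped ER residents return from the Golgi in vesicles coated with COPI. In enterocytes this route supplies brush border enzymes, transporters, lipoproteins and junction proteins.

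Of the 65 members, 10 (15.4%) were up-regulated in IPEC-J2 compared with IPEC-1, 9 (13.8%) were down-regulated, and 46 were not called. Among all 6765 genes, 9.46% were called higher and 11.2% lower. Genes at the floor on all 6 arrays could not be called. The called members were thus 10 and 9 of 61 that left the floor, and the called genes 640 and 761 of 5513. The 3 arrays of one line did not overlap with those of the other for 33 members, 13 higher and 20 lower in IPEC-J2, which is 50.8% of the members against 38.7% of all genes. Counted over genes that left the floor on at least 1 array, the shares were 54.1% and 47.5%. COPB2, SEC31B, SEC14L2 and SPCS2 never left the floor and could not be called, which left 61 measured members, 57 of them above the floor on all 6 arrays. The median log2 difference was -0.04 over all members and 0.00 over all genes. The differences were mostly small: the median absolute log2 difference was 0.32 over the measured members and 0.40 over the measured genes, and TRAPPC12, for which the floor sets the size, was the only called member with a difference over 1.

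The calls depended on settings to different degrees. The lines did not overlap for any of the 19 called members. Their differences within note A and within note B therefore had the sign of the call in advance, and only their sizes are informative. COPA, COPG2, KDELR1, SEC61G, SRP19, SSR2, TMED4, TMED5 and TMED7 lost their call when at least 1 array was left out, as given beside each. In 1 alternative, the culture notes and the remaining 2 arrays were taken as 3 pairs in a block. TRAPPC4, TRAPPC5, TRAPPC12, KDELR2, SEC61B, COPA and KDELR1 then stayed called in limma. The adjusted p of the other 12 called members lay between 0.0531 and 0.128. Among all 6765 genes this block gave 364 higher and 379 lower calls, against 640 and 761 without it. When genes without any signal above the floor were left out of the fit, SSR3, SPCS1, SEC61G and SRP19, all with absolute differences under 0.2, lost their calls (limma adjusted p = 0.175, 0.197, 0.218 and 0.703), and SEC13, SEC23A and TRAPPC1 gained one. The plot of all measured members by role shows these differences with their intervals.

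**Figure D1:**
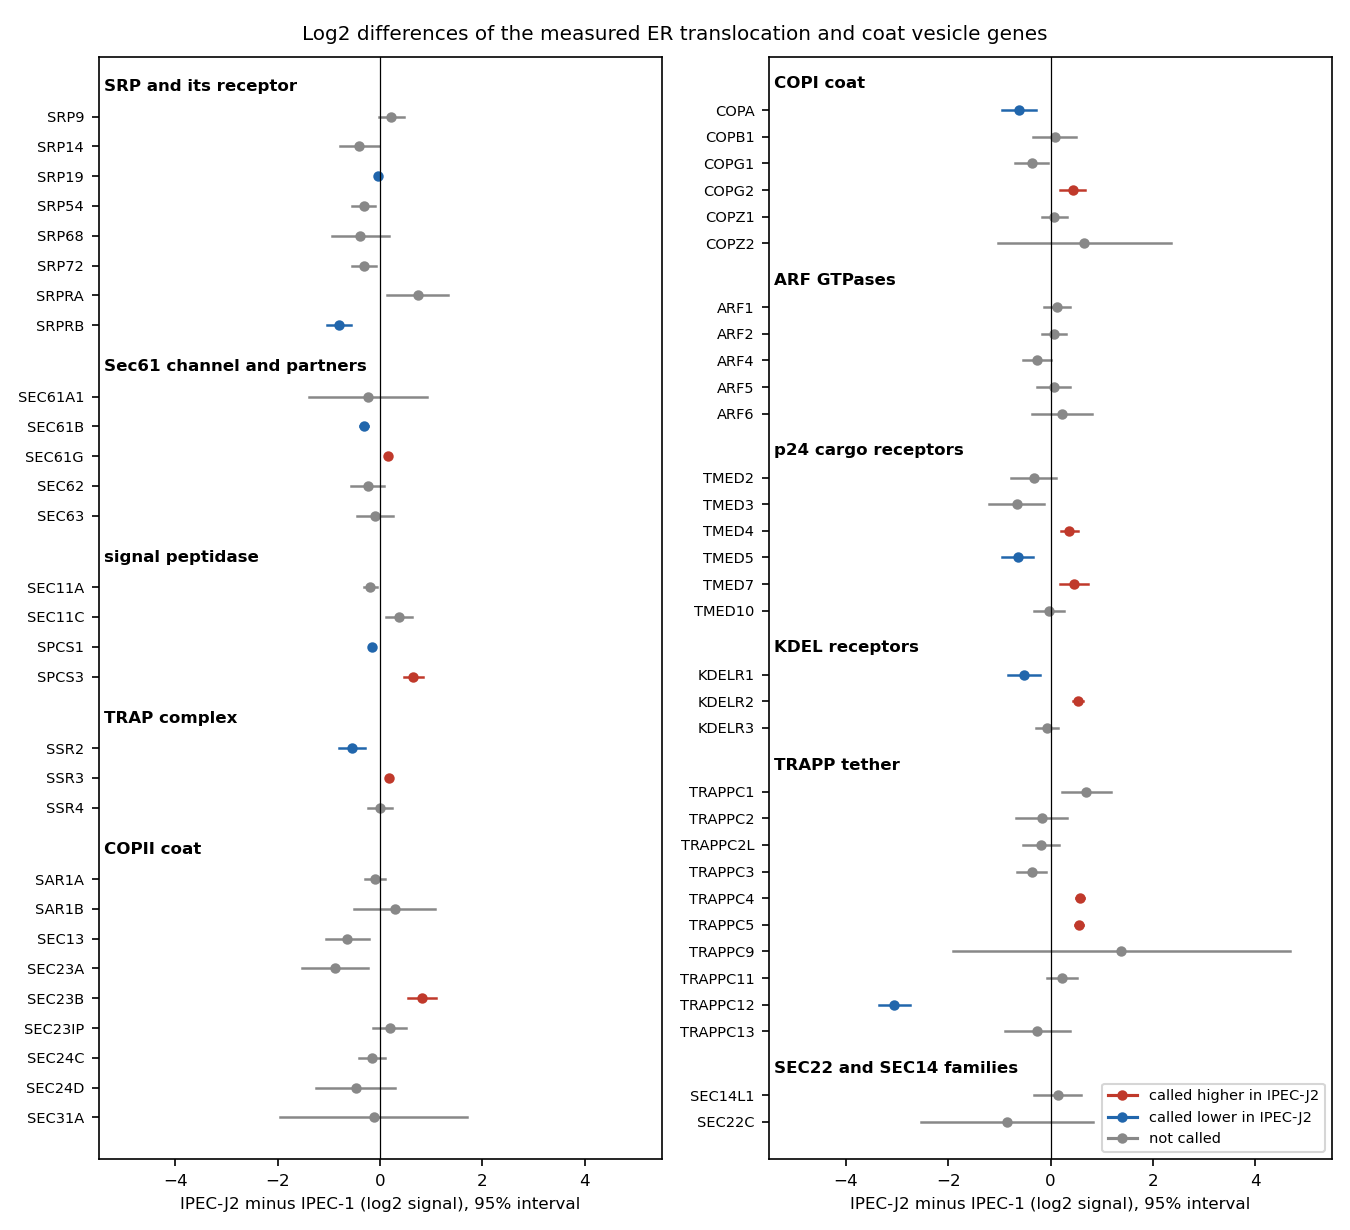
Log2 difference in signal, IPEC-J2 minus IPEC-1, for each of the 61 measured members, grouped by role. Points are differences between the means of 3 arrays per line and lines are 95% intervals from limma. Red members were called higher in IPEC-J2 (10), blue members lower (9). Called members of opposite sign stand in the same role in 7 of the 11 groups, and in fewer with the culture notes as a block. TRAPPC12 lies apart from the rest at a place set by the floor in IPEC-J2, and the widest interval is that of TRAPPC9.

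Among the 8 genes for SRP and its receptor, SRPRB and SRP19 were down-regulated in IPEC-J2 and none was called higher. At an unadjusted limma p under 0.05 there were 1 higher and 5 lower, and the unmoderated test named in the methods gave 0 and 2 after adjustment. The median log2 difference of the 8 was -0.32, and the lines did not overlap for 7 of them. All 8 were measured, and 47.5% of measured genes (38.7% of all genes) had no overlap. SRPRB encodes the small membrane-anchored GTPase subunit of the SRP receptor. Its log2 signal was 9.38, 9.27 and 9.25 on the IPEC-1 arrays and 8.36, 8.65 and 8.49 on the IPEC-J2 arrays. Every IPEC-J2 array was below every IPEC-1 array, a log2 difference of -0.80 (SE 0.0887, 1.74-fold lower, limma adjusted p = 0.00769), with -0.89 in note A and -0.91 in note B. SRPRA, the partner subunit that binds SRP itself, lay on the other side without being called. Its log2 signal averaged 8.32 ± 0.39 (SD, n = 3) in IPEC-1 and 9.05 ± 0.13 in IPEC-J2, a log2 difference of 0.74 (limma adjusted p = 0.0964). Both of its probe sets were higher in IPEC-J2, by 0.60 and 0.87. The log2 ratio of SRPRA to SRPRB was 1.54 higher in IPEC-J2 and did not overlap between the lines. This pair was chosen after its values were seen, so no p is given for its ratio.

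Of the subunits of the particle, SRP54, the GTPase that binds the signal sequence, had a log2 difference of -0.32 (95% interval -0.54 to -0.10, limma adjusted p = 0.0662). SRP72 also differed by -0.32 (limma adjusted p = 0.0742), and its 3 probe sets lay between -0.37 and -0.25. SRP68, the partner of SRP72, differed by -0.39 (limma adjusted p = 0.301), but its brighter probe set alone was called lower, with a log2 difference of -0.31 (limma adjusted p = 0.00691 over all probe sets). SRP14 and SRP9 form the dimer that slows elongation. SRP14 differed by -0.40 and SRP9 by 0.22 on the log2 scale (limma adjusted p = 0.136 and 0.189). SRP19, which helps assemble SRP54 onto the RNA of the particle, read 7.48, 7.50 and 7.48 in IPEC-1 and 7.44 on each array of IPEC-J2. The arrays did not overlap, but the log2 difference of -0.04 (limma adjusted p = 0.0235) was the smallest of any call, and 1 of its 2 probe sets never left the floor. Its call was lost without IPEC-1 replicate 1 or 3 or any 1 IPEC-J2 array (limma adjusted p = 0.0546 to 0.0851).

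In the Sec61 channel, SEC61B was down-regulated and SEC61G up-regulated. These are the small beta and gamma subunits that flank the pore. The log2 signal of SEC61B was 11.39, 11.32 and 11.34 in IPEC-1, against 11.07, 10.99 and 11.05 in IPEC-J2. All 3 IPEC-J2 arrays were lower, by 0.31 in the mean on the log2 scale (SE 0.0305, 1.24-fold lower, limma adjusted p = 0.00552). With the arrays centred on their 75th percentile, the adjusted p of SEC61B was 0.157. SEC61G has 1 probe set that never left the floor. The other rose from a mean log2 signal of 11.70 to 12.01, a difference of 0.31 (limma adjusted p = 0.0249 over all probe sets), and the average of both differed by 0.15 (limma adjusted p = 0.0164). The call of the averaged gene was lost without any 1 IPEC-J2 array (limma adjusted p = 0.0544 to 0.0616).

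SEC61A1 encodes the alpha subunit, which forms the pore. Its 3 probe sets disagreed, with log2 differences of -1.53, -0.33 and 1.14. The outer values came from probe sets at the floor on 4 or 5 of the 6 arrays, and their average of -0.24 had a 95% interval of -1.39 to 0.91. With the brightest probe set alone, SEC61A1 differed by -0.33 (limma adjusted p = 0.0326). SEC62 and SEC63, which help precursors enter the channel after translation, differed by -0.24 and -0.10 (limma adjusted p = 0.267 for SEC62, and SEC63 was not called).

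Signal peptidase had 1 subunit in each direction. SPCS3, an accessory subunit needed for cleavage, was up-regulated in IPEC-J2, and SPCS1, a small accessory subunit, was down-regulated. The log2 signal of SPCS3 was 9.63, 9.61 and 9.57 in IPEC-1, against 10.39, 10.24 and 10.14 in IPEC-J2. The groups were well apart, with a log2 difference of 0.65 (SE 0.0713, 1.57-fold higher, limma adjusted p = 0.00738), and it was 0.51 in note A and 0.78 in note B. The measured probe set of SPCS1 fell from a mean log2 signal of 12.42 to 12.10, a difference of -0.32 (limma adjusted p = 0.0150 over all probe sets), while its other probe set never left the floor and the averaged gene differed by -0.16 (limma adjusted p = 0.0100). SEC11A and SEC11C are alternative catalytic subunits. SEC11A differed by -0.19 and SEC11C by 0.37 on the log2 scale (limma adjusted p = 0.0579 and 0.0658), and neither gene overlapped between the lines. Their log2 ratio differed by -0.57 between the lines (two-sided exact permutation p = 0.1, the smallest that 3 against 3 arrays allow).

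The translocon-associated protein (TRAP) complex sits beside the channel and helps some precursors to enter. SSR2, its beta subunit, read 12.31, 12.65 and 12.45 in IPEC-1, against 11.90, 11.95 and 11.94 in IPEC-J2. It was lower on each IPEC-J2 array, with a log2 difference of -0.54 (SE 0.0951, 1.45-fold, limma adjusted p = 0.0241). The within-note differences were -0.37 and -0.75, and the call was lost without IPEC-1 replicate 3 or any 1 IPEC-J2 array (limma adjusted p = 0.0751 to 0.0886). SSR3, the gamma subunit, was up-regulated by only 0.17 (limma adjusted p = 0.00896), from 11.08 ± 0.01 (SD, n = 3) to 11.25 ± 0.03. SSR4, the delta subunit, had a mean log2 signal of 12.49 in both lines (95% interval of the difference -0.24 to 0.24).

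Of the 10 genes of the COPII coat, SEC23B was up-regulated in IPEC-J2 and none was called lower. At an unadjusted limma p under 0.05, SEC23A and SEC13 were lower, and the unmoderated test named in the methods gave 1 higher and 0 lower after adjustment. SEC23A and SEC23B are paralogs that activate the GTPase SAR1 in the inner layer of the coat. SEC23B gave log2 signals of 9.62, 9.38 and 9.51 in IPEC-1, against 10.44, 10.38 and 10.16 in IPEC-J2. All IPEC-J2 arrays were higher, with a log2 difference of 0.82 (SE 0.105, 1.77-fold, limma adjusted p = 0.0105), of 0.54 in note A and 1.06 in note B. SEC23A gave 9.12, 8.73 and 8.80 in IPEC-1, against 7.56, 8.28 and 8.18 in IPEC-J2. Its arrays did not overlap either, but the log2 difference of -0.88 (SE 0.244) missed the threshold (limma adjusted p = 0.0761). Without IPEC-J2 replicate 1, the lowest array, it was -0.66 (limma adjusted p = 0.0768). Both probe sets of SEC23A were lower in IPEC-J2, by -0.82 and -0.95. The log2 ratio of SEC23A to SEC23B differed by -1.71 between the lines, the largest change among 16 pairs of related genes (two-sided exact permutation p = 0.1, and 0.156 adjusted over the 14 pairs tested).

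SEC13, a subunit of the outer COPII cage that also serves in the nuclear pore, had log2 signals of 10.27, 10.66 and 10.14 in IPEC-1, against 9.83, 9.69 and 9.63 in IPEC-J2, with no overlap and a difference of -0.64 (limma adjusted p = 0.0586). SEC31A, its partner in the cage, differed by -0.12 on average, with a 95% interval of -1.95 to 1.71, and 2 of its 3 probe sets were at the floor on some arrays. The brightest probe set of SEC31A differed by -0.30 (limma adjusted p = 0.0296 where each gene was read from its brightest probe set). SAR1A and SAR1B are the GTPases that start coat assembly, and SAR1B serves chylomicron export in enterocytes. SAR1B differed by 0.29 and SAR1A by -0.09 (limma adjusted p = 0.610 and 0.495), and the brightest probe set of SAR1B by 0.40 (limma adjusted p = 0.0371 in the same fit). The cargo adaptors SEC24C and SEC24D differed by -0.16 and -0.48, and SEC23IP, which binds SEC23, by 0.19 (limma adjusted p = 0.334, 0.361 and 0.382).

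**Figure D2:**
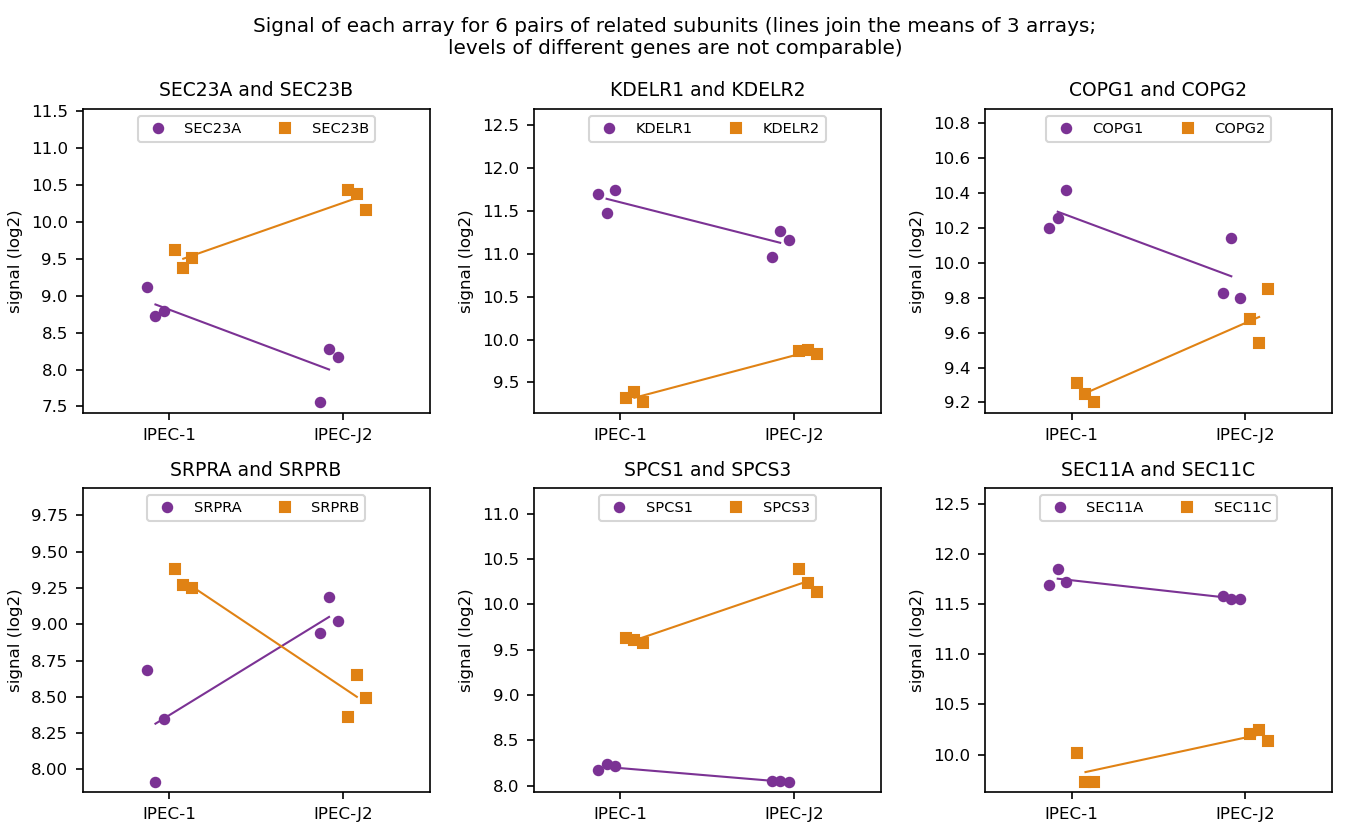
Log2 signal of each array (points) for 6 pairs of related genes, with lines joining the mean over 3 arrays per line. The 6 are a selection from the 16 compared pairs, and SRPRA with SRPRB and SPCS1 with SPCS3 were added after their values were seen. In each panel 1 gene is higher and the other lower in IPEC-J2, as for SEC23A (-0.88) and SEC23B (0.82). Pairs not drawn include some whose genes differed in the same direction, such as SEC24C (-0.16) and SEC24D (-0.48). Each axis spans its own range, which starts above 0.

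The COPI coat returns ER residents from the Golgi. COPA, its alpha subunit, was down-regulated and COPG2, a gamma subunit, was up-regulated. The log2 signal of COPA was 11.06, 11.05 and 11.30 in IPEC-1, against 10.37, 10.71 and 10.46 in IPEC-J2. Each IPEC-J2 array was lower, with a log2 difference of -0.62 (SE 0.124, 1.54-fold, limma adjusted p = 0.0333), of -0.60 in note A and -0.68 in note B. The call was kept without IPEC-J2 replicate 2, and without any other single array the limma adjusted p was 0.0785 to 0.118. COPG2 gave 9.31, 9.25 and 9.20 in IPEC-1, against 9.68, 9.54 and 9.85 in IPEC-J2, a log2 difference of 0.44 (SE 0.0906, 1.35-fold, limma adjusted p = 0.0370) without overlap. Its limma adjusted p was 0.0586 to 0.118 when any 1 array other than IPEC-J2 replicate 2 was left out.

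COPG1, the paralog of COPG2, differed by -0.37 on the log2 scale (limma adjusted p = 0.113), also without overlap. The log2 ratio of COPG1 to COPG2 differed by -0.81 between the lines (two-sided exact permutation p = 0.1). COPB1 and COPZ1, the beta and zeta1 subunits, differed by 0.08 each (limma adjusted p = 0.901 and 0.681). COPZ2 was above the floor on IPEC-J2 replicate 2 alone, at 5.99. The small GTPases ARF1, ARF2, ARF4, ARF5 and ARF6, of which ARF1 recruits COPI to the Golgi and ARF6 acts at the plasma membrane, differed by -0.26 to 0.23 and none was called by limma, at an unadjusted p under 0.05 or by the unmoderated test named in the methods. ARF4 gave the -0.26 (95% interval -0.53 to 0.01, limma adjusted p = 0.167). The log2 ratio of ARF4 to ARF5 differed by -0.32 without overlap (two-sided exact permutation p = 0.1).

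The p24 proteins (TMED) select cargo for COPI and COPII vesicles. TMED4 and TMED7 were up-regulated and TMED5 was down-regulated, and the lines did not overlap for 5 of the 6 genes (47.5% of measured genes, 38.7% of all genes). TMED4 gave log2 signals of 9.79, 9.87 and 9.76 in IPEC-1, against 10.16, 10.28 and 10.09 in IPEC-J2, all higher, by 0.37 (SE 0.0603, 1.29-fold, limma adjusted p = 0.0201). Its 3 probe sets were all higher in IPEC-J2, by 0.21 to 0.68. Without IPEC-1 replicate 1 or 3 or IPEC-J2 replicate 1 its limma adjusted p was 0.0584 to 0.0710. TMED7 gave 9.34, 9.29 and 9.32 in IPEC-1, against 9.57, 9.78 and 9.95 in IPEC-J2, higher on each array, by 0.45 on average over 4 probe sets that ranged from 0.09 to 0.82. Its call (limma adjusted p = 0.0479) was close to the threshold and was lost without any 1 array except IPEC-J2 replicate 1 (limma adjusted p = 0.0779 to 0.137).

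TMED5 gave averaged log2 signals of 7.60, 7.38 and 7.36 in IPEC-1, against 6.90, 6.88 and 6.62 in IPEC-J2, a difference of -0.64 (SE 0.111, limma adjusted p = 0.0226). Its 4 probe sets ranged from -1.20 to 0.09. The probe set at -1.20 read 4.00 on each IPEC-J2 array and the brightest was the one at 0.09, so the direction of TMED5 rests on its dim probe sets. Its call was also lost without any 1 array (limma adjusted p = 0.0510 to 0.0638). TMED3 was also lower on each IPEC-J2 array without being called, with log2 signals of 8.85, 9.15 and 8.44 against 8.12, 8.10 and 8.23 and a difference of -0.66 (limma adjusted p = 0.0942). TMED2 differed by -0.33 and TMED10 by -0.03 (limma adjusted p = 0.263 and 1). The log2 ratios of TMED3 and of TMED5 to TMED7 differed by -1.12 and -1.10 between the lines, without overlap (two-sided exact permutation p = 0.1 each).

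KDEL receptors catch escaped ER proteins in the Golgi and hand them to COPI vesicles. KDELR2 was up-regulated in IPEC-J2 and KDELR1 was down-regulated. KDELR2 gave log2 signals of 9.31, 9.38 and 9.27 in IPEC-1, against 9.86, 9.88 and 9.83 in IPEC-J2. The arrays of each line lay close together and far from those of the other, with a log2 difference of 0.54 (SE 0.0354, 1.45-fold, limma adjusted p = 0.00191), of 0.52 in note A and 0.48 in note B. Its 3 probe sets differed by 0.93, 0.39 and 0.29, all upward. With the brightest probe set alone, the one at 0.29, KDELR2 was not called (limma adjusted p = 0.342).

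KDELR1 gave log2 signals of 11.70, 11.48 and 11.75 in IPEC-1, against 10.96, 11.27 and 11.16 in IPEC-J2. Each IPEC-J2 array was lower, with a log2 difference of -0.51 (SE 0.117, 1.43-fold, limma adjusted p = 0.0471), of -0.54 in note A and -0.52 in note B. The adjusted p rose to between 0.0568 and 0.138 in limma when any 1 array was left out. KDELR3 differed by -0.08 (95% interval -0.29 to 0.14). The log2 ratio of KDELR1 to KDELR2 differed by -1.05 between the lines and did not overlap, and the ratios of KDELR1 and of KDELR2 to KDELR3 differed by -0.44 and 0.61 (two-sided exact permutation p = 0.1 for each of these).

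TRAPP is the complex that tethers incoming vesicles and activates RAB GTPases. Of its 10 genes, TRAPPC4 and TRAPPC5, subunits of the core, were up-regulated in IPEC-J2, and TRAPPC12, a subunit found in the TRAPPIII form of the complex, was down-regulated. TRAPPC5 gave log2 signals of 10.01, 10.07 and 10.08 in IPEC-1, against 10.58, 10.61 and 10.64 in IPEC-J2. The spread within a line was under 0.1, against a log2 difference of 0.56 (SE 0.0268, 1.47-fold, limma adjusted p = 0.000742). TRAPPC4 gave 7.33, 7.42 and 7.34 in IPEC-1, against 7.94, 7.96 and 7.93 in IPEC-J2 as the average of 3 probe sets, a log2 difference of 0.58 (SE 0.0273, 1.49-fold, limma adjusted p = 0.000713). One of these probe sets never left the floor, and the other 2 rose by 0.84 and 0.90.

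TRAPPC12 gave 6.86, 7.27 and 7.04 in IPEC-1 and read 4.00 on all 3 IPEC-J2 arrays. It had the smallest adjusted p among the members (limma adjusted p = 0.000382), which was at most 0.00545 when 1 array was left out. Because the floor fixed all 3 IPEC-J2 values, that line added no measured spread to these p-values, and their small size is no measure of certainty. In the fit without genes of low mean, TRAPPC12 was left out. The IPEC-1 mean of TRAPPC12, 7.06, was below 7.78, the level under which 95% of the stray IPEC-J2 signals lay when a probe set was at the floor on the other IPEC-J2 arrays, so no fold is given.

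The remaining subunits were not called. TRAPPC1 gave 8.38, 8.46 and 8.10 in IPEC-1, against 9.25, 9.05 and 8.73 in IPEC-J2, with no overlap and a log2 difference of 0.70 (limma adjusted p = 0.0625). TRAPPC3 differed by -0.37 without overlap (limma adjusted p = 0.0875). TRAPPC9 averaged 1.38 higher in IPEC-J2, but IPEC-1 replicate 1 lay at the floor while the other 2 IPEC-1 arrays read 7.99 and 7.74, near the IPEC-J2 arrays at 7.88 to 8.07 (limma adjusted p = 0.571). TRAPPC2, TRAPPC2L, TRAPPC11 and TRAPPC13 differed by -0.26 to 0.22. Of the last group, SEC14L1 differed by 0.14 and SEC22C by -0.85, where IPEC-J2 replicate 1 was at the floor (limma adjusted p = 0.704 and 0.470).

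**Figure D3:**
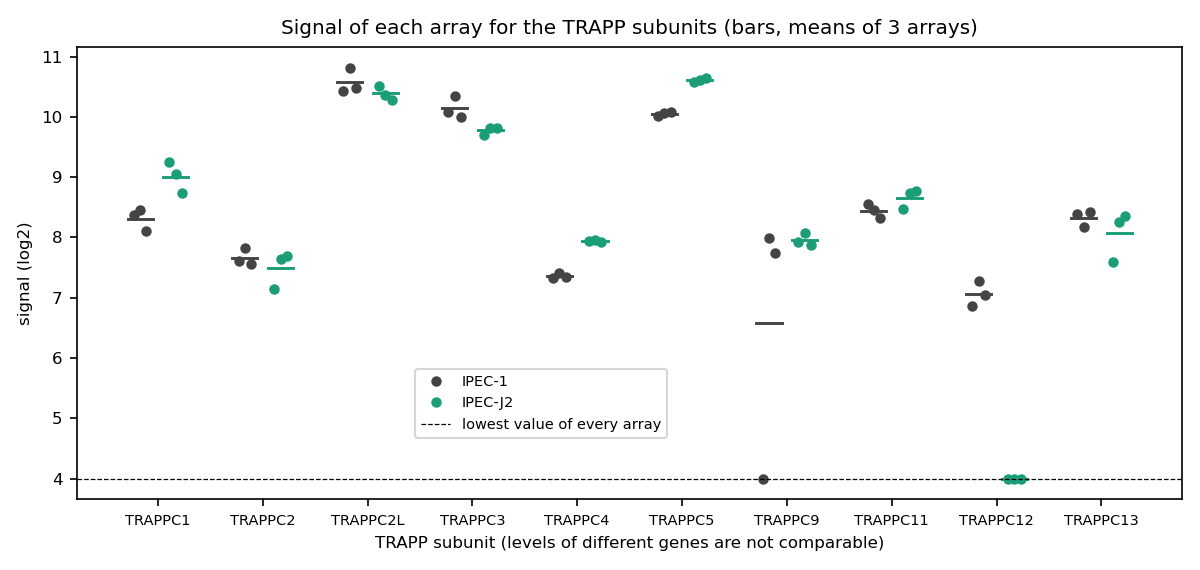
Log2 signal of each array (points) and the mean of 3 arrays (bars) for the 10 TRAPP subunits, IPEC-1 beside IPEC-J2. The dashed line is the floor of 4.00. TRAPPC4 and TRAPPC5 are tightly grouped and higher in IPEC-J2, all 3 IPEC-J2 arrays of TRAPPC12 lie at the floor, and 1 IPEC-1 array of TRAPPC9 does.

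Across roles, calls of both directions stood side by side in 7 groups: the Sec61 channel, signal peptidase, TRAP, COPI, p24, KDEL receptors and TRAPP. The share over other groups of genes was not computed. When the genes at the floor were left out of the fit, Sec61, signal peptidase and TRAP no longer held both directions, and COPII did. With the culture note block, the KDEL receptors and TRAPP alone held both, where the lower TRAPP call was TRAPPC12. The lower p24 call, TMED5, rests on its dim probe sets. The 16 compared pairs comprised 14 listed paralog pairs and the 2 pairs SRPRA with SRPRB and SPCS1 with SPCS3, added after their values were seen. The ratio within the pair did not overlap between the lines for 9 of the 14 and for both added pairs. The share over other gene pairs was not computed. Of single genes, 47.5% of the measured and 38.7% of all had no overlap. Ratios that overlapped were those of SAR1A to SAR1B (-0.38, two-sided exact permutation p = 0.3), SEC24C to SEC24D (0.31, p = 0.5), COPZ1 to COPZ2 (-0.59, p = 0.7), TMED3 to TMED5 (-0.02, p = 0.8) and TRAPPC2 to TRAPPC2L (0.01, p = 1). Several pairs share a gene, so they are not independent of each other.

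At the level of probe sets, 18 of the 100 (18.0%) were called, 10 higher and 8 lower, against 11.8% of all 23999 non-control probe sets. These shares have unlike bases, because a probe set at the floor on all 6 arrays could not be called. Of the 100, 9 were such probe sets, while 40.5 to 48.3% of all probe sets lay at the floor on any 1 array. The share over probe sets that left the floor was not computed. Of the 18 members with several measured probe sets, 6 had differences of both signs, and none had probe sets called in both directions. Whether probe sets of 1 gene read different transcripts or cross-hybridise with a paralog was not tested.

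**Figure D4:**
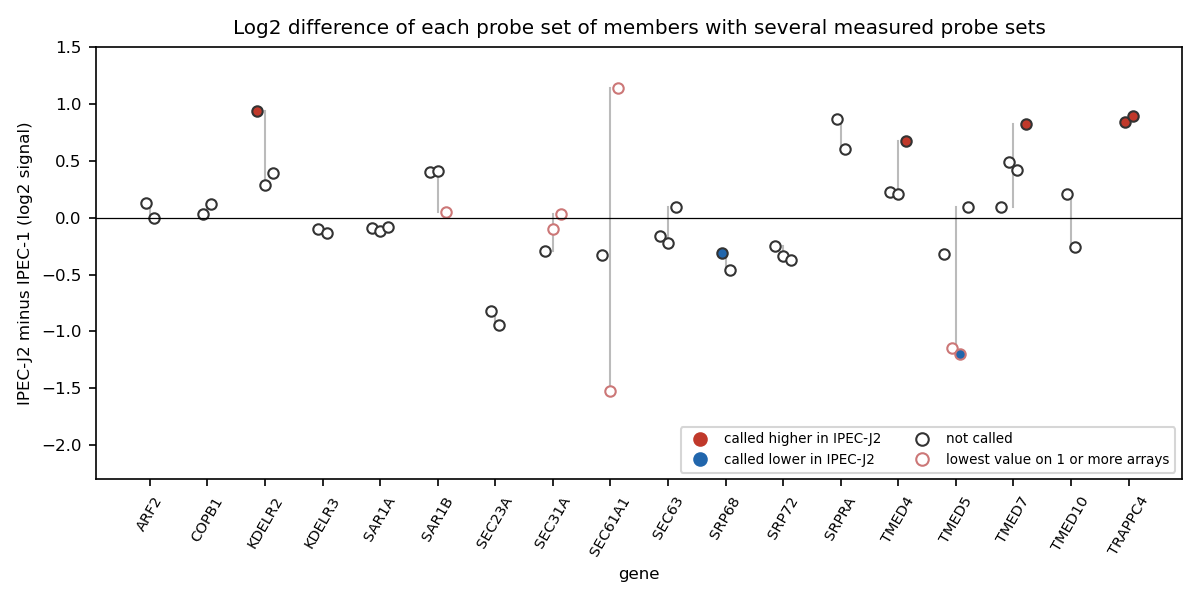
Log2 difference, IPEC-J2 minus IPEC-1, of each measured probe set (points) for the 18 members with several, joined by a grey line per gene. Filled points were called. Both measured probe sets of TRAPPC4 were called higher, while those of SEC61A1 and TMED5 spread from -1.53 to 1.14 and from -1.20 to 0.09.

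Other genes of the pathway were described from lists chosen by function. Among all 6765 genes, 9.46% were called higher and 11.2% lower, with a median log2 difference of 0.00. A further list held 32 genes for the entry or handling of proteins at the ER membrane, with cytosolic factors such as ASNA1 among them. Of these, 4 were called higher and 4 lower, with a median log2 difference of -0.02. TRAM2, a translocating chain-associated protein, rose from 9.78, 9.40 and 9.23 in IPEC-1 to 11.21, 11.40 and 11.27 in IPEC-J2, a difference of 1.82 (SE 0.164, 3.54-fold, limma adjusted p = 0.00457). TUSC3, a subunit of one form of the oligosaccharyltransferase that adds N-glycans to entering chains, was 2.30-fold higher (limma adjusted p = 0.00220). The ER membrane protein BCAP29 was higher by 1.135 on average (limma adjusted p = 0.0317) and by 2.63 with its brightest probe set. Its means of 5.97 in IPEC-1 and 7.11 in IPEC-J2 lay below 7.85 and 7.78, the levels of stray signals, so no fold is given. The fourth was TMEM258 (0.36), also an oligosaccharyltransferase subunit. Called lower were the subunits OST4 (-0.86), OSTC (-0.68) and DAD1 (-0.31), with limma adjusted p = 0.0362, 0.000713 and 0.00454. ASNA1, the ATPase that delivers tail-anchored proteins, was also lower (-0.67, limma adjusted p = 0.0338). Its means of 6.19 in IPEC-1 and 5.52 in IPEC-J2 were below the same levels. With the culture notes and the remaining pair of arrays as a block, TRAM2, TUSC3, OSTC and DAD1 stayed called, and BCAP29, TMEM258, OST4 and ASNA1 had limma adjusted p = 0.0574 to 0.148. The same 4 also lost their calls without at least 1 array (at most 0.118).

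Of 37 further genes of ER to Golgi transport, 2 were called higher and 5 lower, with a median log2 difference of -0.14. Lower were COG8, a Golgi tether subunit that read 4.00 on each IPEC-J2 array, BNIP1 (-0.80), a SNARE of the ER, and SCFD1 (-0.70), which binds the SNAREs of this route (limma adjusted p = 5.9e-05, 0.0411 and 0.00625), with TFG (-0.36) and YIPF1 (-0.34). Higher were ERGIC2 (0.65) and MCFD2 (0.56), the latter a cargo receptor partner of LMAN1 (limma adjusted p = 0.00622 and 0.0169). Of these 7, COG8 alone stayed called with the culture note block, and the limma adjusted p of the others was 0.0575 to 0.159. MCFD2, TFG, YIPF1 and BNIP1 also lost their calls without at least 1 array. Among 18 genes of the clathrin coat and its adaptors, GGA1 (0.76) was higher, and AP3S2 (-0.54) and AP3D1 (-0.43), subunits of the AP-3 adaptor, were lower (limma adjusted p = 0.0281, 0.0213 and 0.00451). Of 5 listed genes whose symbols begin with ARL, ARL1 (-0.43) was lower and ARL6IP5 (0.35) higher (limma adjusted p = 0.0422 and 0.0396). With the block, AP3D1 and GGA1 stayed called, and AP3S2, ARL1 and ARL6IP5 had limma adjusted p = 0.103, 0.0740 and 0.0717. Without at least 1 array, AP3D1 alone of these 5 stayed called.

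Of 22 ER stress genes, 5 were called higher in IPEC-J2 and 0 lower, with a median log2 difference of 0.17 against 0.00 over all genes. They were HYOU1 (1.02), a chaperone of the ER lumen, CANX (0.76), the lectin chaperone calnexin, DNAJB9 (0.71), a cofactor of BiP, PDIA3 (0.69), a disulfide isomerase, and EDEM2 (0.69), which trims mannose from misfolded glycoproteins, with limma adjusted p = 0.00882, 0.0198, 0.0214, 0.0345 and 0.0272. The list was chosen by function, so their shared role in folding or disposal of ER proteins is no result of these data. Among all genes, 9.46% were called higher and 11.2% lower. Of the 21 measured genes of the list, 15 were higher and 6 lower. HSPA5 (0.43), HSP90B1 (0.02) and XBP1 (-0.21) were not called. At an unadjusted limma p under 0.05, 8 genes of the list were higher and 1 lower, and the unmoderated test named in the methods gave 5 and 0 after adjustment. With the culture note block DDIT3 gained a call (limma adjusted p = 0.0455). Of the 5 called genes, EDEM2 alone stayed called there (limma adjusted p = 0.0210), and HYOU1, CANX, DNAJB9 and PDIA3 had 0.0651, 0.0653, 0.0781 and 0.0866. Without at least 1 array all of these 5 but HYOU1 lost their calls (limma adjusted p at most 0.114).

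Protein export, as a list of 21 genes written from general knowledge, overlaps the members in 18 genes. In it 2 genes were called higher and 6 lower (9.46% and 11.2% of all genes), with a median log2 difference of -0.19 (0.00 over all genes). The study named a pathway with this title from the same arrays, so these counts are not independent evidence of its direction. The lower calls were SRPRB, SRP19, SEC61B, SPCS1, IMMP2L (-1.08) and OXA1L (-0.94), and the higher calls were SPCS3 and SEC61G. IMMP2L and OXA1L act in the inner membrane of mitochondria and not in the ER (limma adjusted p = 0.00460 and 0.00174). Of the 6 lower calls, SRP19 and SPCS1 were also among those that ended when the genes at the floor were left out of the fit. With the culture note block, SEC61B, IMMP2L and OXA1L stayed called lower. SRPRB, SPCS1 and SRP19 had limma adjusted p = 0.0553, 0.0541 and 0.109 there, and the higher SPCS3 and SEC61G had 0.0531 and 0.0773.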

How the data were processed

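Total RNA of 3 IPEC-1 and 3 IPEC-J2 cultures was measured on Affymetrix Porcine Genome Arrays. The deposited table holds 24123 probe sets as log2 signals, which the authors made with GCOS 1.1.1 and PLIER per the submitters' processing notes. By the methods, GCOS with global scaling was followed by correction for background, normalization and 1 summary value for each probe set. The methods name another GCOS version than the processing notes. Whether the global scaling applies to the deposited values and which normalization followed is not given in the sources used here, nor is the log base, and the signals were read as log2 because the floor of exactly 4.00 on all 6 arrays equals log2 of 16. No further normalization was applied and no detection calls were used. The probe sequences behind the signals and promoter sequences were not analysed here.

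The 124 control probe sets were left out, the 10069 probe sets with 1 symbol in the platform annotation were averaged per symbol to 6765 genes, and 198 probe sets with several symbols were not used. All 65 members carry the same symbol in the RefSeq gene table. Groups and replicate numbers came from the titles of the samples. Within a line, arrays correlated at 0.969 to 0.988 (Pearson r) and no arrays were identical.

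The comparison of the lines used limma 3.58.1 (R 4.3.3; lmFit, eBayes, no block, Benjamini-Hochberg over all 6765 genes, threshold 0.05), after a test on simulated data. The t-test of the methods was an alternative. Ratios of gene pairs were compared with exact permutation tests over the 6 arrays (scipy 1.17.1). Figures were drawn with matplotlib 3.10.9. For a gene at the floor in 1 line, a fold was to be given against a level for that line: of the probe sets at the floor on 2 of its 3 arrays, the 95th percentile of the signals above the floor on the third array (7.85 in IPEC-1, 7.78 in IPEC-J2), a level chosen after the data were seen.

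The members, lists of genes and pairs were chosen with earlier results of these data known. Named by rule were the called members, members without overlap and a difference over 0.5, partners of called paralogs, in each role the member of highest mean signal and, where none was called, that of largest difference, and up to 3 called genes of each further list, marker lists included. Remaining members and further called genes were added after their values were seen, so that each member is accounted for. Alternatives were the brightest probe set, quantile normalization, centring on the 75th percentile, leaving out floor genes or genes of low mean, eBayes with trend and robust options, the replicate number or culture note as a block, and leaving out each array.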

Additional observations from a re-analysis of the deposited data

How the results depend on the processing

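The median log2 difference of the members stayed between -0.10 and 0.01 under the alternatives run. The fit reported gave 10 higher and 9 lower calls (640 and 761 among all 6765 genes). The unadjusted t-test of the methods gave 13 higher and 17 lower (920 and 1154 among all genes). The culture note as a random block gave 11 higher and 14 lower (713 and 889 among all genes). The replicate block gave 5 higher and 2 lower (272 and 324 among all genes). However, same-numbered arrays did not deviate together (correlations -0.06, -0.11 and 0.06), so the numbers were not taken to pair the samples. Arrays of the same culture note correlated at 0.06 (note A) and 0.17 (note B). The 4 arrays of notes A and B with the note as a block gave 0 and 0 calls, as they did among all 6765 genes. The notes with the third pair as a block, chosen after seeing the data, gave 3 higher and 4 lower (364 and 379 among all genes). Leaving out 1 array gave 7 to 8 higher and 4 to 8 lower. The brightest probe set gave 9 higher and 12 lower (757 and 899 among all genes). Among called members, signs reversed for SRP19 with centring (0.0133) and for TMED5 with the brightest probe set (0.0933). Among members not called, TMED10 (-0.03) also changed sign, to 0.21 with the brightest probe set and 0.03 with centring, and SEC63 from -0.10 to 0.10 with the brightest probe set. SEC31A, ARF5, COPB1, SAR1B and TRAPPC2, also not called, changed sign when 1 array was left out or within the 4 arrays of notes A and B. Centring on the 75th percentile shifted the median of all genes by 0.06 and ended the calls of SEC61B, SEC61G, SPCS1, SRP19 and SSR3 while adding those of SEC23A, SRP9 and SRPRA. Averaging only probe sets above the floor, an alternative chosen after seeing the data, gave 8 and 8 calls. The cause of these changes was not tested. With 3 arrays per line, small differences such as those of SRP19 and SSR3 rest on a very small spread, and signals at the floor set no level.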
